A study of Mus musculus with 12 samples.

Results

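Loss of Prmt1 was examined in mouse LSK cells, the bone marrow fraction that lacks lineage markers, carries Sca1 and Kit and contains blood stem cells with their first progenitors. The members are the autosomal genes of a single comparison, the 2 libraries titled PRMT1_KO (S8 and S9) against the 2 titled WT_PRMT1 (S10 and S11). Of 17063 genes with enough counts to test, 16503 lie on autosomes and are described here, and genes on X and Y were left out. The 4 libraries belong to a series of 12, whose other 8 are HOXA9_KO, Bcat_KO (β-catenin, gene Ctnnb1), dKO (both genes) and a WT group of their own. The series asks how β-catenin, Hoxa9 and Prmt1 bear on DNA replication, genome integrity and stem cell function. Every group, both control groups included, consists of cells sorted 6 weeks after tamoxifen from mice that had received a primary transplant, so the controls shared drug and transplant. The genotype field calls PRMT1_KO a knockdown and calls WT_PRMT1 the wild type of the PRMT1 experiment. The Cre driver, the exons the allele loses, the animals' age and sex, whether host cells remained in the sorted fraction and whether a group's libraries stem from separate animals are not given here. If they did not, the p-values measure technical spread.

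Prmt1 is the main type I protein arginine methyltransferase of mammalian cells and places asymmetric dimethyl marks on arginine. Its known substrates include RNA-binding proteins with arginine-glycine stretches, splicing factors, proteins of the DNA damage response and histone H4, and blood formation is one of the processes in which it has been studied. LSK cells are mostly progenitors that divide, with a small share of long-term stem cells that rarely do.

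The 4 libraries held 17.6e6 to 24.4e6 counts, and levels are given in CPM, counts scaled to a common library size. Across the autosomal genes tested the libraries of a pair correlated at 0.972 or more on the log2 CPM scale, against 0.928 to 0.930 between the groups. With counts halved, to allow for mates counted separately, replicates of both groups still differed by more than counting noise. The median chi-square per gene between replicates was 1.29 in PRMT1_KO and 1.37 in WT_PRMT1. It was 1.45 to 3.74 in the other groups, which share the fit that gives the p-values and standard errors (SE) below. All 4 libraries carried the sort genes Kit (144 and 139 CPM in WT_PRMT1 against 330.3 and 308 in PRMT1_KO) and Ly6a, which encodes Sca1 (99.6 and 86.9 CPM in WT_PRMT1 against 298 and 270.3 in PRMT1_KO). The groups differed in sex-linked RNA. Y chromosome genes summed to 230 CPM in both PRMT1_KO libraries and to 12.7 and 14.6 in WT_PRMT1, and Xist stood at 0.735 and 0.758 against 170 and 202. Sex and genotype therefore cannot be told apart in any change below. The other knockouts also carried more Y chromosome RNA than WT (Y sums of 153.9 to 169 CPM against 15.1 and 18.0). Bcat_KO held some Xist as well, at 11.2 and 21.9 CPM against 182 and 163 in WT. A sex effect of equal size would drop out of the differences between knockout changes, and whether its size was equal was not tested. In bulk RNA, fewer cells of a type and less RNA per cell cannot be told apart either.

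Prmt1 itself (ENSMUSG00000109324, GRCm38 chromosome 7, 44975989 to 44986568, minus strand) was at 283 and 292 CPM in the control libraries and 118 and 112 in the knockout libraries. Both knockout libraries lay below both controls, with 0.398 of the control level left. The log2 change was -1.33 ± 0.068 (adjusted p = 4.55e-07). Here and below, ± gives the SE from the fit of all 12 libraries, 2 per group. Counts cover the whole gene, so transcripts without the deleted exons can still be counted. Among its neighbours, the antisense transcript Gm15545, which starts next to Prmt1, changed by -1.37 ± 0.34, adjusted p = 0.00988. It overlaps Bcl2l12 on the other strand, and the strand setting of the counting is not given, so their reads cannot be told apart. Scaf1 was lower (-0.66 ± 0.091, adjusted p = 2.39e-04), Nosip and Rcn3 were higher (0.67 ± 0.10 and 0.96 ± 0.12), and Bcl2l12 and Irf3 did not pass the test (adjusted p = 0.110 and 0.170). Hoxa9 (44.7 and 44.4 CPM in WT_PRMT1 against 41.1 and 43 in PRMT1_KO, adjusted p = 0.748) and Ctnnb1 (332 and 354 CPM in WT_PRMT1 against 378 and 384 in PRMT1_KO, adjusted p = 0.135), the other genes the study targeted, did not pass it.

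Of the 16503 autosomal genes, 5244 were called at an adjusted p under 0.05 (31.8%), 2678 of them higher (16.2%) and 2566 lower (15.5%) in PRMT1_KO. The libraries of the groups did not overlap for 11247 genes (68.2%), a share that includes many genes that were not called. More than 2-fold changes were called for 941 genes higher and 1150 lower, and more than 8-fold changes for 153 and 242. The call was more frequent at high expression. It rose from 3.3% of the genes in the lowest of 4 equal groups by mean CPM to 27.0%, 42% and 54.8% in the next groups, and in the top group 32.6% of genes were higher and 22.2% lower. Lists of highly expressed genes are to be read against those shares. Scaling to library totals in place of TMM (edgeR's trimmed mean) moved the median log2 change of all genes from -0.028 to -0.17 and the calls to 1921 higher and 3380 lower, so that 36.2% of calls were higher in place of 51.1%. All 46 list medians below fell with it, by 0.14 each. The 100 most abundant genes took 28.3 to 29.1% of the counts in PRMT1_KO and 23.8 to 24.4% in WT_PRMT1. Without WT_PRMT1 S11 the lower calls fell to 1707.

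**Figure D1:**
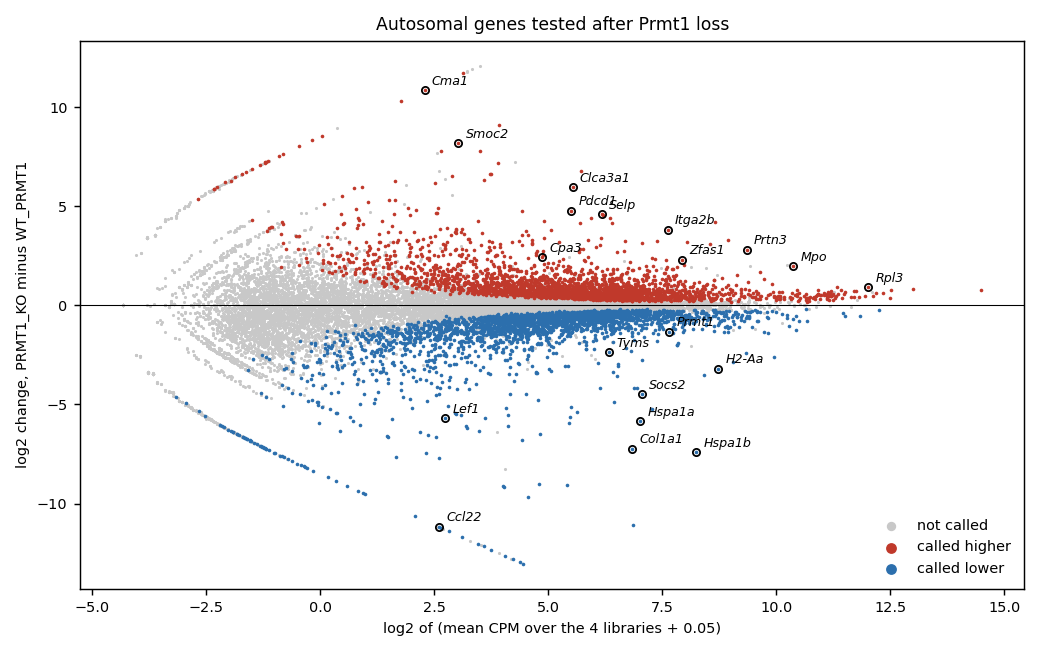
Log2 change (PRMT1_KO minus WT_PRMT1) of the 16503 autosomal genes tested, against the log2 of their mean CPM plus 0.05 over the 4 libraries; red and blue points are the 2678 higher and 2566 lower calls, and labelled genes are among those described in the text. Points on the curved outer edges have 0 counts in a whole group, where the fitted change depends on the prior count.

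Of 13 genes for arginine methyltransferases and their partners, 4 were lower, Prmt1 included, and 1 was higher, with a median log2 change of -0.16 against -0.028 over all autosomal genes. That median was -0.076 without WT_PRMT1 S11 and -0.10 without PRMT1_KO S9. Prmt3, which modifies a ribosomal protein, went from 80.7 and 75.8 CPM to 40.0 and 38.1 (-1.0 ± 0.14, adjusted p = 2.24e-04). Prmt7, the enzyme limited to monomethylation, went from 59.1 and 59.4 to 30.3 and 29.1 (-1.0 ± 0.10, adjusted p = 2.91e-05). Prmt2 was at 6.51 and 9.53 CPM in WT_PRMT1 against 4.17 and 3.12 in PRMT1_KO (-1.14 ± 0.30, adjusted p = 0.0137), a call that was lost without PRMT1_KO S9 and without WT_PRMT1 S11 (adjusted p up to 0.152). The exception in direction was Btg1, a growth-restraining partner protein of Prmt1, at 433 and 372 CPM in WT_PRMT1 against 569 and 627 in PRMT1_KO (0.57 ± 0.10, adjusted p = 0.00127). Values of the rest did not pass the test. Prmt5, the main enzyme of symmetric dimethylation, was at 130.3 and 119.9 CPM in WT_PRMT1 against 129.6 and 122 in PRMT1_KO (0.0091 ± 0.10), and its partners Wdr77, Clns1a and Riok1 gave 0.13 ± 0.12, -0.16 ± 0.082 and -0.30 ± 0.11. The type I enzymes Carm1 and Prmt6 gave -0.14 ± 0.12 and 0.10 ± 0.20, Prmt9 gave -0.16 ± 0.18, and Btg2, related to Btg1, gave 0.22 ± 0.12. Of 8 genes for arginine demethylation or the reading of methylarginine, the deiminase Padi4 was higher (0.42 ± 0.13, adjusted p = 0.0318) and the topoisomerase Top3b lower (-0.80 ± 0.11, adjusted p = 1.86e-04). The Padi4 call did not survive leaving out any single library (adjusted p up to 0.142) and with library totals (0.189).

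The genes with the largest gains, ranked by the fitted log2 change, included several products of mast cells, receptors of myeloid cells and lymphocytes, and a few genes best known from outside blood. Cma1, mast cell chymase, had 0 counts in both controls and 7.23 and 12.1 CPM in PRMT1_KO, at least 134-fold higher against a floor of 3 counts over the control group. Reads seem to have been counted by mate and not by pair, so that floor may be too low. Smoc2, a secreted matrix protein, was at 0.113 and 0 CPM in WT_PRMT1 against 18.1 and 14.2 in PRMT1_KO (8.17 ± 0.89, adjusted p = 8.16e-05). Fcer1a, the IgE-binding chain of the mast cell and basophil receptor, was at 0.113 and 0 CPM in WT_PRMT1 against 11.8 and 13 in PRMT1_KO (7.79 ± 0.82, adjusted p = 4.27e-05). Trnp1, a nuclear protein known from the developing brain, was at 0.113 and 0.270 CPM in WT_PRMT1 against 29.6 and 29.6 in PRMT1_KO (7.19 ± 0.47, adjusted p = 1.83e-05). In all of these the controls were close to 0. The granzyme Gzmb, found in cytotoxic lymphocytes and in mast cells, rose to 28.1 and 24.5 CPM from 0.453 and 0.0899 (6.65 ± 0.84, adjusted p = 1.34e-04), and the tryptase Tpsb2 to 12.3 and 35.4 from 0.226 and 0.360 (6.30 ± 1.18, adjusted p = 0.00235), with its PRMT1_KO libraries far apart. Clca3a1, a chloride channel regulator, was one of the best measured gains at 1.36 and 1.53 CPM in WT_PRMT1 against 92.6 and 89.8 in PRMT1_KO (5.97 ± 0.23, adjusted p = 6.87e-08). Pdcd1, the inhibitory receptor PD-1, was at 2.49 and 3.87 CPM in WT_PRMT1 against 89.4 and 85.1 in PRMT1_KO (4.77 ± 0.41, adjusted p = 1.04e-05). Il1f9, Rcvrn, Fcgr4, Dmkn, Fyb2 and Lmcd1 completed the set with log2 changes of 5.34 ± 1.06, 5.32 ± 1.12, 5.21 ± 0.72, 4.93 ± 0.91, 4.91 ± 1.17 and 4.65 ± 0.87. Their mean levels in PRMT1_KO were 5.45, 5.95, 3.91, 11.6, 7.28 and 11.2 CPM, so all were low.

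Mt2, a metallothionein that binds zinc and copper, was in the same set, at 0 and 0.135 CPM in WT_PRMT1 against 5.70 and 6.42 in PRMT1_KO (6.27 ± 1.08, adjusted p = 0.00108). Its neighbour Mt1, looked up after the value of Mt2 was seen, was the more abundant copy at 8.49 and 9.12 CPM in WT_PRMT1 against 162 and 157 in PRMT1_KO (4.18 ± 0.26, adjusted p = 1.60e-06). Both libraries of PRMT1_KO were far above both controls for Mt1. Because both genes rose and they lie side by side, the 150 bases before their RefSeq starts (GRCm38.p6) are printed, with capitals for matches to TGCACNC or TGCGCNC, the core letters of metal response elements, on either strand. The Mt1 stretch is chr8:94178939-94179088, plus strand, and the Mt2 stretch is chr8:94172468-94172617, plus strand.
Mt1: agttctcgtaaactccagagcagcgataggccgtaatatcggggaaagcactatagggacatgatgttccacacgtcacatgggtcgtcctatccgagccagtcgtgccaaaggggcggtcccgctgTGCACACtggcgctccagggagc
Mt2: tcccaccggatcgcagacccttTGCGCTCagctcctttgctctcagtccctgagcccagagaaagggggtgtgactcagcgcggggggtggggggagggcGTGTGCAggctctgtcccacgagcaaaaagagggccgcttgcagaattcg
Within the 250 bases before the start, these letters matched once at Mt1 and 3 times at Mt2, of which 2 fall in the printed stretch. They are not rare: 29.4% of the 11346 tested autosomal genes with a promoter in the RefSeq table held a match in the same window. Bases after the RefSeq start were not searched, so the counts for Mt1 and Mt2 may not cover every element of either gene.

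Among the largest losses were genes of dendritic cells, stroma and the heat shock response. Hspa1b, an inducible heat shock protein of the Hsp70 family, fell from 629 and 578 CPM to 3.80 and 3.39 (-7.39 ± 0.25, adjusted p = 3.70e-08), 168-fold lower, and Hspa1a from 257 and 253 to 3.68 and 5.08 (-5.85 ± 0.23, adjusted p = 9.17e-08). Col1a1, a chain of type I collagen, was at 144 and 313 CPM in WT_PRMT1 against 1.53 and 1.52 in PRMT1_KO (-7.23 ± 0.52, adjusted p = 3.86e-06), with the controls more than 2-fold apart. Ccl22, a chemokine of dendritic cells, had 0 counts in PRMT1_KO and 9.85 and 14.2 CPM in the controls, at least 159-fold lower against 3 counts over the group. Tnfrsf19, a Wnt-responsive receptor, was at 12.1 and 11.8 CPM in WT_PRMT1 against 0.123 and 0 in PRMT1_KO (-7.68 ± 1.19, adjusted p = 5.33e-04). These genes were close to silent in both knockout libraries. Xcr1, the chemokine receptor of cross-presenting dendritic cells, was at 21.6 and 14.3 CPM in WT_PRMT1 against 0.245 and 0.268 in PRMT1_KO (-6.09 ± 0.72, adjusted p = 9.11e-05), and Dnase1l3, a secreted nuclease of dendritic cells and macrophages, at 23.8 and 20.3 CPM in WT_PRMT1 against 0.368 and 0.178 in PRMT1_KO (-6.36 ± 0.86, adjusted p = 2.20e-04). Gfra2, a receptor for the neurturin family of growth factors, was at 33.5 and 34.6 CPM in WT_PRMT1 against 0.245 and 0.714 in PRMT1_KO (-6.07 ± 0.94, adjusted p = 5.59e-04). Fxyd6, Tlr11 and Ccn3 changed by -6.67 ± 1.34, -6.40 ± 1.22 and -6.20 ± 1.01. Other calls of this set did not survive every left-out library. Cxcl9 (11.5 and 8.27 CPM in WT_PRMT1 against 0 and 0.0892 in PRMT1_KO) and Bcl2a1d (5.55 and 5.39 CPM in WT_PRMT1 against 0 and 0.0892 in PRMT1_KO) lost them without PRMT1_KO S8 or S9, with adjusted p up to 0.0676 and 0.0801, and Hmgcll1 (5.60 and 5.89 CPM in WT_PRMT1 against 0.123 and 0.0892 in PRMT1_KO) without S9 (0.0659).

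**Figure D2:**
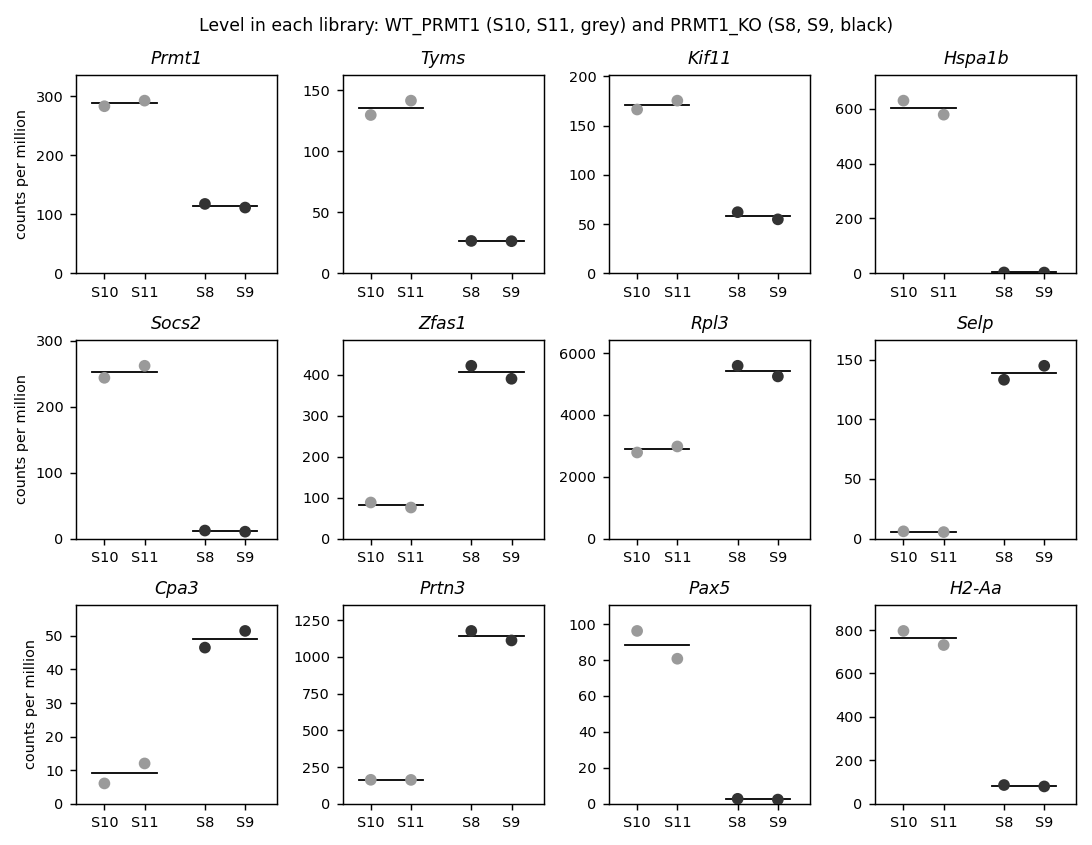
Level in CPM of 12 genes in each of the 4 libraries, from 0, with WT_PRMT1 S10 and S11 in grey, PRMT1_KO S8 and S9 in black and a line at each group's mean. In every panel the groups are apart, with Prmt1 falling from 283 and 292 to 118 and 112 CPM, Hspa1b and Pax5 close to 0 in PRMT1_KO, and Selp and Prtn3 far above the controls.

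Genes that copy DNA fell together. Of 59 DNA replication genes tested, 48 were lower and 0 higher, with a median log2 change of -0.75 and 1 member above 0, the licensing factor Cdt1 (0.13 ± 0.14, adjusted p = 0.546). Their summed level was 9748 and 10205 CPM in the controls and 5738 and 5686 in PRMT1_KO. Tyms, thymidylate synthase, went from 129.8 and 142 CPM to 26.6 and 26.4 (-2.35 ± 0.12, adjusted p = 5.82e-07). Pcna, the sliding clamp, went from 654 and 639 to 321 and 307 (-1.04 ± 0.067, adjusted p = 1.89e-06). For both, the knockout libraries were close to each other and below the controls. The polymerase subunit Pold1 (-1.08 ± 0.076, adjusted p = 3.18e-06) and DNA ligase Lig1 (-1.23 ± 0.086, adjusted p = 3.18e-06) changed by similar amounts, and both subunits of ribonucleotide reductase, Rrm1 and Rrm2, were lower too (-1.19 ± 0.087 and -1.40 ± 0.18, named after their values were seen). With each of the 12 alternative settings, 42 to 52 members were lower and none higher.

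Mitosis genes fell further. Of 49 tested, 42 were lower and 0 higher, none had a positive change, and the median was -1.17, from -2.20 to -0.091. Their sum was 4635 and 4749.9 CPM in WT_PRMT1 against 2150.5 and 2119.6 in PRMT1_KO. Spc24, a subunit of the Ndc80 kinetochore complex, was at 99.1 and 87.2 CPM in WT_PRMT1 against 23.8 and 16.9 in PRMT1_KO (-2.20 ± 0.20, adjusted p = 1.51e-05). Kif11, the kinesin that separates spindle poles, was at 166 and 175 CPM in WT_PRMT1 against 62.2 and 54.9 in PRMT1_KO (-1.55 ± 0.14, adjusted p = 1.44e-05). Incenp, the scaffold of the chromosomal passenger complex, was at 135 and 139.8 CPM in WT_PRMT1 against 54.3 and 51.6 in PRMT1_KO (-1.38 ± 0.11, adjusted p = 9.21e-06), and Top2a, which untangles sister DNA, at 631 and 709 CPM in WT_PRMT1 against 259 and 260.2 in PRMT1_KO (-1.37 ± 0.14, adjusted p = 2.91e-05). Knockout libraries were below controls for all 4. The 7 members that did not pass the test were Plk1, Aurka, Anln, Ccnb1, Ccnf, Pttg1 and Cenpa, with Plk1 at -0.78 ± 0.28 and Ccnb1 at -0.50 ± 0.26, the first of these the polo kinase and the second cyclin B1. The proliferation marker Mki67 was at 351 and 263 CPM in WT_PRMT1 against 92.3 and 177 in PRMT1_KO (-1.18 ± 0.25, adjusted p = 0.00412), with its knockout libraries nearly 2-fold apart.

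The printed promoters show the sequence context of 2 of these genes. The CHR letters TTTGAA or TTTAAA, which cell cycle genes are known to carry near their starts, are in capitals where they match on either strand in the 150 bases before the RefSeq start (GRCm38.p6). The Kif11 stretch is chr19:37376232-37376381, plus strand, and the Top2a stretch is chr11:99024190-99024339, minus strand.
Kif11: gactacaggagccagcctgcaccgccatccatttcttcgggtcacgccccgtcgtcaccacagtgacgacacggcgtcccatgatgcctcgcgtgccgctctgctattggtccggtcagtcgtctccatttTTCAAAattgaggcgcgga
Top2a: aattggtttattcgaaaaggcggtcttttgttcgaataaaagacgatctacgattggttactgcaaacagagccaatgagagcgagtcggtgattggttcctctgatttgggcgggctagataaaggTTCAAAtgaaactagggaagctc
Over 250 bases, 19 of 40 mitosis promoters in the table (47.5%) held the CHR letters and 30 of 40 (75.0%) held CCAAT, against 18.0% and 35.5% of the 11346 promoters of tested autosomal genes. Among 49 replication promoters, 8 (16.3%) held TTTCCCGC, TTTCGCGC or TTTGGCGC, forms of the E2F site, against 2.8%. These shares describe the lists, called and uncalled members together, and Kif11 and Top2a were chosen because their stretch holds a match close to the start.

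Regulators of the G1 phase were lower as well. Of 31 tested, 16 were lower and 3 higher (median -0.48). E2f1 and E2f2, activators of S phase genes, went from 85.9 and 76.2 to 41.9 and 43.4 CPM and from 87.7 and 93.5 to 39.5 and 36.3 (-0.93 ± 0.12, adjusted p = 1.70e-04, and -1.26 ± 0.16, adjusted p = 1.64e-04). Cdk4, the kinase of D cyclins, was at -0.56 ± 0.073 and the activator Mybl2 at -0.86 ± 0.13. The 3 that were higher, named after their values were seen, were the pocket protein Rbl2 (0.69 ± 0.13) and the kinase inhibitors Cdkn1c (0.70 ± 0.23) and Cdkn2d (0.61 ± 0.12), each of which is known to restrain division. The higher count of this G1 list was 2 with library totals or limma-voom. Its higher and lower counts both fell with any 1 library left out, and its median was -0.40 without WT_PRMT1 S11. Of 56 replication-dependent histone genes tested, 8 were lower and 2 higher (median -0.90). These transcripts are known to lack poly(A) tails and most were scarce. The median was -0.0022 among those with a mean of at least 5 CPM and -0.55 without WT_PRMT1 S10. The count of lower calls was 3 without PRMT1_KO S8 or S9 or WT_PRMT1 S10, 4 without WT_PRMT1 S11 and 18 in a fit of the 4 libraries alone. Hist1h2ag (1.47 and 2.02 CPM in WT_PRMT1 against 0.123 and 0 in PRMT1_KO, -4.88 ± 1.12, adjusted p = 0.00614) fell and Hist3h2a (5.15 and 4.76 CPM in WT_PRMT1 against 14.3 and 11.9 in PRMT1_KO, 1.40 ± 0.24, adjusted p = 0.00115) rose, whereas Hist1h2ac (0.96 ± 0.22) lost its call without PRMT1_KO S9 and Hist1h1d (-0.97 ± 0.23) without PRMT1_KO S9 or WT_PRMT1 S11, with adjusted p up to 0.0607 and 0.0686.

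DNA damage response and repair genes fell too. Of 62 tested, 47 were lower and 0 higher (median -0.75). Brca2, which acts in repair of broken DNA by recombination, was at 45.2 and 43.5 CPM in WT_PRMT1 against 10.8 and 11.7 in PRMT1_KO (-1.97 ± 0.11, adjusted p = 1.09e-06). Both knockout libraries lay far below the controls. Parp1, the main sensor of strand breaks, was at 694 and 689 CPM in WT_PRMT1 against 332 and 314 in PRMT1_KO (-1.10 ± 0.07, adjusted p = 1.87e-06), and the single-strand repair scaffold Xrcc1 at 76.4 and 82.1 CPM in WT_PRMT1 against 38.9 and 40.0 in PRMT1_KO (-1.01 ± 0.088, adjusted p = 1.25e-05). Mre11a and Trp53bp1, known targets of Prmt1 as proteins, were lower at the RNA level (-0.58 ± 0.088 and -1.27 ± 0.18, named after their values were seen). Trp53 was at 195 and 208 CPM in WT_PRMT1 against 148 and 145 in PRMT1_KO (-0.46 ± 0.072, adjusted p = 5.63e-04). Its target genes did not move one way. Of 34 tested 7 were higher and 6 lower, and the median of 0.11 became -0.029 with library totals. The stress-response gene Sesn1 rose from 39.7 and 40.1 to 143 and 139.6 CPM (1.82 ± 0.11, adjusted p = 1.37e-06) and adenylate kinase Ak1 by 1.73 ± 0.27. The ribonucleotide reductase subunit Rrm2b fell (-1.47 ± 0.22, adjusted p = 4.73e-04), as did Ckap2 (-0.87 ± 0.13), and the cell cycle inhibitor Cdkn1a did not pass the test (141 and 121 CPM in WT_PRMT1 against 130.2 and 150.5 in PRMT1_KO, adjusted p = 0.595). The count of higher targets was 4 without PRMT1_KO S8 or S9 and 2 without WT_PRMT1 S11, and the median was 0.016 without S9 and 0.23, 0.24 and 0.18 without S8, S10 and S11 and 0.028 at a mean of at least 5 CPM.

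RNA-binding and splicing factors, the class of protein that Prmt1 is best known to methylate, were lower more often than higher. Of 28 genes for proteins with arginine-glycine motifs, 12 were lower and 3 higher (median -0.20), and with library totals 20 were lower. Taf15 went from 261 and 236 to 78.5 and 104 CPM (-1.45 ± 0.12, adjusted p = 1.15e-05). Hnrnpa2b1 (-0.81 ± 0.058, adjusted p = 3.86e-06), Hnrnpr (-0.83 ± 0.078, adjusted p = 1.95e-05) and Sfpq (-0.74 ± 0.063, adjusted p = 1.01e-05) fell by less than 2-fold. The 3 that were higher, named after their values were seen, were Hnrnpa1 (0.77 ± 0.077), the cold-inducible Cirbp (0.59 ± 0.083) and nucleolin, Ncl (0.26 ± 0.066). Ewsr1, a close relative of Taf15, gave 0.13 ± 0.087 and did not pass the test. Among 31 SR proteins and spliceosome components 20 were lower and 1 higher (median -0.40). Srsf10 was at 147 and 151 CPM in WT_PRMT1 against 70.8 and 71.1 in PRMT1_KO (-1.07 ± 0.081, adjusted p = 4.79e-06), Srsf1 at 379.5 and 385 CPM in WT_PRMT1 against 203 and 205 in PRMT1_KO (-0.90 ± 0.093, adjusted p = 3.70e-05) and U2af2, which binds the polypyrimidine tract, at -0.68 ± 0.077. Srsf5 was the exception, at 489 and 498 CPM in WT_PRMT1 against 821 and 889 in PRMT1_KO (0.79 ± 0.08, adjusted p = 3.23e-05). Counts per gene say nothing about isoforms or about methylation of these proteins.

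Ribosomal protein genes rose almost as a block. Of 77 tested, 71 were higher and 0 lower, by a median of 0.46. Their sum was 114450.0 and 108369 CPM in the controls and 166142 and 152099 in PRMT1_KO. Rpl3 was at 2785 and 2979.7 CPM in WT_PRMT1 against 5589 and 5245 in PRMT1_KO (0.91 ± 0.066, adjusted p = 4.06e-06), Rpl12 at 1753 and 1829 CPM in WT_PRMT1 against 3568 and 3176 in PRMT1_KO (0.91 ± 0.073, adjusted p = 7.37e-06) and Rpl4 at 3720.0 and 3717 CPM in WT_PRMT1 against 5730.1 and 5596 in PRMT1_KO (0.61 ± 0.058, adjusted p = 2.33e-05). The knockout libraries were above the controls for each. Rpl13a had the largest change, 1.54 ± 0.10 (66.6 and 73.4 CPM in WT_PRMT1 against 218 and 189 in PRMT1_KO). Rps10, Rps27l, Rpl24, Rpl31 and Rpl36al, named after their values were seen, were among the 6 that did not pass the test. Ribosomal protein genes have many processed pseudogenes that can share their reads, so single values are uncertain. The share of higher calls in the top group by mean CPM, 32.6%, is the nearer background for these abundant mRNAs. The median was 0.32 with library totals, when 57 or more members were still called higher under each of the 12 alternatives.

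Host genes of small nucleolar RNAs, which like ribosomal protein mRNAs are known to begin with a terminal oligopyrimidine tract, moved the same way. Of 14 tested, 7 were higher and 0 lower (median 0.71). Zfas1 went from 88.2 and 75.9 to 422 and 390.1 CPM (2.31 ± 0.10, adjusted p = 1.60e-07) and Gas5 from 337 and 307 to 647 and 662 (1.02 ± 0.086, adjusted p = 9.57e-06). Snhg8 (1.11 ± 0.13) and Snhg12 (1.07 ± 0.16) rose about 2-fold. The elongation factor Eef1a1, looked up after the values of this group were seen, rose from 16345 and 17625 to 30275 and 28415 CPM (0.79 ± 0.06, adjusted p = 5.27e-06). Genes that build ribosomes did not follow as a group: of 54 tested 11 were higher and 11 lower (median -0.017). Npm1, nucleophosmin, was higher (0.52 ± 0.059, adjusted p = 6.76e-05) and so was Wdr43 (0.46 ± 0.078), whereas the box C/D protein Nop56 (-0.77 ± 0.074, adjusted p = 2.30e-05) and Bop1 (-0.69 ± 0.11) were lower. The higher count was 7, 6 and 5 without PRMT1_KO S8, S9 and WT_PRMT1 S10, the lower count 6, 6 and 5 without S8, S10 and S11, the median -0.054 without S9, and library totals gave 4 higher and 18 lower.

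**Figure D3:**
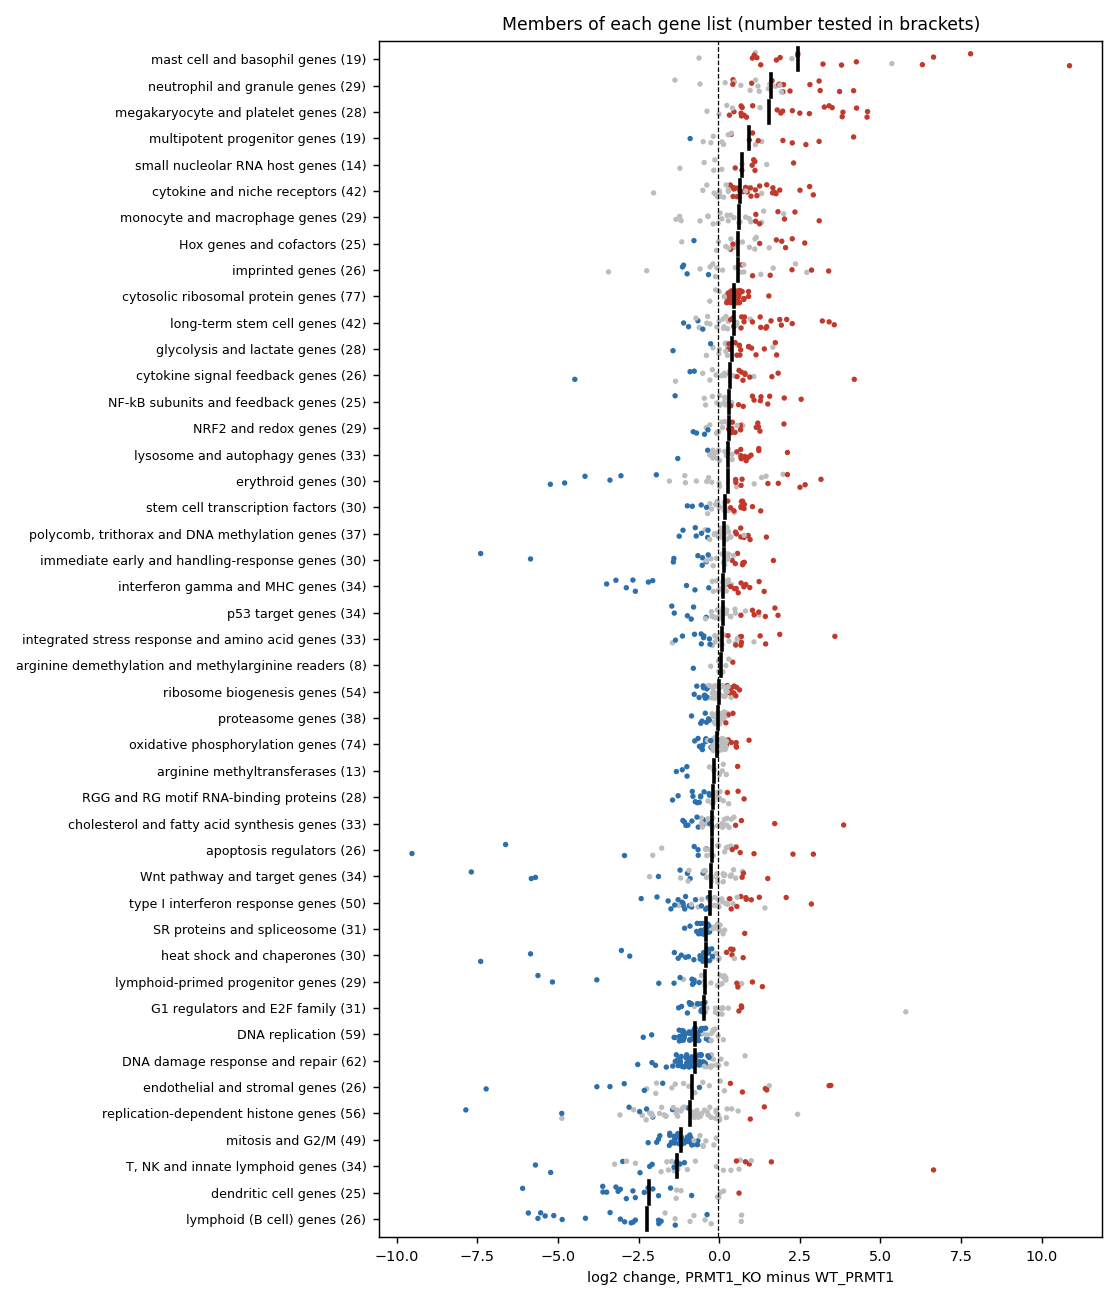
Log2 change (PRMT1_KO minus WT_PRMT1) of each tested member of 45 gene lists, ordered by median, with called members in red (higher) or blue (lower), uncalled ones in grey, a black bar at the list's median and a dashed line at the median of all autosomal genes (-0.028). Mitosis genes (median -1.17) lie entirely below 0, and ribosomal protein genes (median 0.46) form a tight cluster above it.

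Heat shock genes fell, led by the inducible ones. Of 30 chaperone genes tested, 20 were lower and 5 higher (median -0.42). Besides Hspa1a and Hspa1b, the cochaperone Dnaja1 went from 284 and 329 to 112 and 122 CPM (-1.39 ± 0.11, adjusted p = 7.62e-06) and Stip1, which links Hsp70 to Hsp90, from 386 and 409 to 181 and 171 (-1.18 ± 0.088, adjusted p = 4.61e-06). Hspb1 (-3.03 ± 0.40), Hsph1 (-2.77 ± 0.25) and the heat shock transcription factor Hsf1 (59.1 and 67.7 CPM in WT_PRMT1 against 32.8 and 32.8 in PRMT1_KO, -0.95 ± 0.12), named after their values were seen, were lower as well. The lower count was 13 without WT_PRMT1 S11, and the higher count was 3 without it or PRMT1_KO S9. Hspa1a and Hspa1b are near-identical copies that can share reads, so the split between them is uncertain. Their promoters are printed because they show how alike the copies are: 149 of the 150 bases before the start are the same (chr17:34972157-34972306, minus strand and chr17:34959239-34959388, minus strand, GRCm38.p6, RefSeq). Capitals mark the match to GAANNTTC, the paired repeat of a heat shock element, searched with TTCNNGAA on both strands.
Hspa1a: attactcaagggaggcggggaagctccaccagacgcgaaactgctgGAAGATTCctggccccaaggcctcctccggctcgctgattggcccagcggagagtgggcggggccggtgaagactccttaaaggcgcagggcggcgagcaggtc
Hspa1b: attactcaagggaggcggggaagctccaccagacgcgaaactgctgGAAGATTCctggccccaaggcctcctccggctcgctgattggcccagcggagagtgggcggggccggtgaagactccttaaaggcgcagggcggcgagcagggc
Such a match lay within 250 bases of the start in 7 of 25 chaperone promoters (28.0%) and in 10.3% of the 11346. Hspa1a and Hspa1b also belong to the list of immediate early genes, which cell handling is known to induce. There 7 of 30 were higher and 9 lower (median 0.15), with 13 higher when no filter was used and 11 in the 4 libraries alone. The median was 0.019 without PRMT1_KO S9 and 0.07 without WT_PRMT1 S11. Klf2 fell from 1373 and 1256 to 500.5 and 482 CPM (-1.42 ± 0.13, adjusted p = 1.51e-05) and Klf6 rose from 1814 and 1756 to 2915 and 2993 (0.73 ± 0.086, adjusted p = 9.31e-05). Summed levels of that list overlapped between the groups, at 28297 and 25690.0 CPM in WT_PRMT1 against 25002 and 26842 in PRMT1_KO.

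Long-term stem cell genes were higher more often than lower. Of 42 long-term stem cell genes tested, 21 were higher and 4 lower (median 0.46). Ly6a rose 3.04-fold (1.61 ± 0.13, adjusted p = 6.43e-06). Esam, an adhesion molecule of stem cells, was at 12.8 and 15.9 CPM in WT_PRMT1 against 56.5 and 49.1 in PRMT1_KO (1.88 ± 0.14, adjusted p = 4.52e-06), Txnip, a regulator of glucose uptake and redox state, at 234 and 234 CPM in WT_PRMT1 against 558 and 572 in PRMT1_KO (1.27 ± 0.089, adjusted p = 3.18e-06) and Gata2 at 86.8 and 95.2 CPM in WT_PRMT1 against 220.2 and 224 in PRMT1_KO (1.29 ± 0.11, adjusted p = 1.01e-05). The SLAM marker Slamf1 (CD150), named after its values were seen, rose from 1.25 and 2.52 to 18.3 and 16.9 CPM (3.20 ± 0.29, adjusted p = 1.66e-05). Fgd5 (-0.72 ± 0.28) and Hlf (-0.36 ± 0.15), which mark long-term stem cells, did not pass the test, and Ndn, Egr1 and Robo4 were among the lower ones (-1.10 ± 0.36, -0.66 ± 0.18 and -0.51 ± 0.16). The lower count was 1 or 2 without any 1 library and 7 to 9 with library totals, DESeq2, no filter or the 4 libraries alone. Multipotent progenitor genes were higher in 9 of 19 cases and lower in 1, Cd48 (149 and 161 CPM in WT_PRMT1 against 84 and 82.5 in PRMT1_KO, -0.90 ± 0.19), with a median of 0.94. Those that rose were led by myeloid granule genes, among them Wfdc17 (16.1 and 11.4 CPM in WT_PRMT1 against 94 and 83 in PRMT1_KO, 2.69 ± 0.28, adjusted p = 3.49e-05), with Emb (1.04 ± 0.11) and the receptor Igf1r (1.21 ± 0.15). Flt3 (453 and 495 CPM in WT_PRMT1 against 523 and 519.6 in PRMT1_KO) and Cd34 (595 and 635 CPM in WT_PRMT1 against 678 and 629 in PRMT1_KO), the surface proteins that divide the LSK fraction, did not pass the test (adjusted p = 0.609 and 0.669).

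Among transcription factors of stem cells, more were higher than lower. Of 30 tested, 11 were higher (36.7%) and 4 lower (13.3%), with a median of 0.19. Over all autosomal genes 16.2% were higher and 15.5% lower. Zfpm1, the partner of GATA factors, was higher (0.77 ± 0.078, adjusted p = 3.30e-05), and Cbfa2t3 (-0.99 ± 0.13, adjusted p = 1.65e-04), Foxo1 (-0.83 ± 0.14, adjusted p = 7.41e-04), Sox4 (-0.56 ± 0.13) and Runx1 (-0.39 ± 0.11) were lower. The higher count was 6 without PRMT1_KO S9, 5 without WT_PRMT1 S11 and 7 with library totals, and the lower count was 2 without WT_PRMT1 S10 and 7 with library totals or the 4 libraries alone. Among 25 Hox genes and cofactors 8 were higher and 1 lower (median 0.59). The cofactor Pbx3 was at 4.41 and 3.60 CPM in WT_PRMT1 against 10.3 and 8.83 in PRMT1_KO (1.26 ± 0.21, adjusted p = 9.50e-04), whereas Pknox1 fell (-0.78 ± 0.12, adjusted p = 6.04e-04). Hoxb5 was at 0.566 and 0.719 CPM in WT_PRMT1 against 3.98 and 2.32 in PRMT1_KO (2.27 ± 0.48, adjusted p = 0.00409), and its neighbours Hoxb2, Hoxb6 and Hoxb8 also passed the test at means of 0.794, 1.09 and 1.60 CPM in PRMT1_KO. Without any 1 library the higher count of this list was 4 or 5, and at a mean of at least 5 CPM it was 5 with a median of 0.34.

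Genes of the megakaryocyte and platelet lineage were higher in most cases. Of 28 tested, 23 were higher and 0 lower (median 1.53), and their sum was 982 and 974 CPM in the controls and 2404 and 2359.8 in PRMT1_KO. Selp, P-selectin of platelet granules, went from 6.11 and 5.48 to 133 and 145 CPM (4.59 ± 0.17, adjusted p = 6.87e-08). Itga2b and Itgb3, the subunits of the platelet fibrinogen receptor, went from 25.7 and 26.6 to 375 and 361 (3.81 ± 0.21, adjusted p = 7.37e-07) and from 29.1 and 34 to 309 and 297 (3.26 ± 0.14, adjusted p = 1.58e-07). All of these were more than 8-fold above the controls. Gp9, part of the von Willebrand receptor, was at 3.51 and 3.15 CPM in WT_PRMT1 against 24.7 and 21.6 in PRMT1_KO (2.80 ± 0.18, adjusted p = 2.27e-06), Vwf at 14.5 and 9.98 CPM in WT_PRMT1 against 133 and 127 in PRMT1_KO (3.41 ± 0.30, adjusted p = 1.43e-05) and the platelet chemokine Pf4 at 2.38 and 3.51 CPM in WT_PRMT1 against 64.4 and 49.7 in PRMT1_KO (4.26 ± 0.59, adjusted p = 2.72e-04). Erythroid genes were divided. Of 30 tested, 10 were higher and 6 lower (median 0.26). The erythropoietin receptor Epor (1.47 and 1.08 CPM in WT_PRMT1 against 7.23 and 7.22 in PRMT1_KO, 2.51 ± 0.33, adjusted p = 1.92e-04), the water channel Aqp1 (27.7 and 25.8 CPM in WT_PRMT1 against 228 and 249 in PRMT1_KO, 3.16 ± 0.33, adjusted p = 4.18e-05), Rhag (2.67 ± 0.34) and carbonic anhydrase Car2 (0.51 ± 0.075) were higher. The globins, named after their values were seen, were lower: Hbb-bs went from 323 and 280.4 to 8.58 and 7.49 CPM (-5.23 ± 0.77, adjusted p = 3.82e-04), and Hbb-bt, Hba-a1 and Hba-a2 gave -3.05 ± 0.60, -4.16 ± 0.78 and -4.79 ± 0.92. The globin copies can share reads. The higher erythroid count was 6 without PRMT1_KO S9, WT_PRMT1 S10 or WT_PRMT1 S11.

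Mast cell and basophil genes had the highest median of the 46 lists, 2.43. Of 19 tested, 15 were higher and 0 lower, and the sum was 951 and 946 CPM in WT_PRMT1 against 2457 and 2376 in PRMT1_KO. Much of that sum is Srgn (629.6 and 599 CPM in WT_PRMT1 against 1348 and 1262 in PRMT1_KO, 1.09 ± 0.078, adjusted p = 3.86e-06) and Kit (1.17 ± 0.11, adjusted p = 2.52e-05), which progenitors also express. Slc18a2, the amine transporter, was at 19.2 and 17.8 CPM in WT_PRMT1 against 62.6 and 64.3 in PRMT1_KO (1.78 ± 0.17, adjusted p = 2.33e-05) and the mast cell protease Cpa3, named after its values were seen, at 6.06 and 12 CPM in WT_PRMT1 against 46.5 and 51.5 in PRMT1_KO (2.43 ± 0.35, adjusted p = 3.64e-04). The IgE receptor chain Fcer1a and chymase Cma1 are given above. With the exception of 1 cytokine gene, Il4 (-0.62 ± 1.00), all members tested had positive values. The stretches before the starts of Cpa3 (chr3:20242182-20242331, minus strand), Fcer1a (chr1:173227230-173227379, minus strand) and Cma1 (chr14:55944676-55944825, minus strand) are printed (GRCm38.p6, RefSeq) because they hold matches to AGATAA or AGATAG or TGATAA or TGATAG, the letters bound by GATA factors, on either strand, in capitals.
Cpa3: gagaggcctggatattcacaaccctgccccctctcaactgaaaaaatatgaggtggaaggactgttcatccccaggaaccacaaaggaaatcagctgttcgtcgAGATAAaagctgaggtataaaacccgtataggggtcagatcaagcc
Fcer1a: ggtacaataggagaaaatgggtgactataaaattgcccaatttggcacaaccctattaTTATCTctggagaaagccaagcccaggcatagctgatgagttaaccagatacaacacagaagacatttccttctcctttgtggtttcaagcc
Cma1: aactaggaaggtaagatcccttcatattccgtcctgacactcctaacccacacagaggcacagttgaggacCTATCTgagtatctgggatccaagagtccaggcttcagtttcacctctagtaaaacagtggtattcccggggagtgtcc
Of 18 promoters of this list in the table, 12 (66.7%) held such a match within 250 bases, as did 9 of 22 for the megakaryocyte list (40.9%) and 17.7% of the 11346. These shares take called and uncalled members together. Among called members, 8 of 14 (57.1%) of the mast cell list and 6 of 15 (40.0%) of the megakaryocyte list held a match. Of all 25748 autosomal promoters, genes not tested included, 27.0% did.

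Neutrophil and granule genes were higher in many cases and lower in none. Of 29 tested, 13 were higher and 0 lower (median 1.62), and their sum was 2089 and 2224 CPM in the controls and 7541 and 7097 in PRMT1_KO. Prtn3, proteinase 3, was at 163 and 163 CPM in WT_PRMT1 against 1177 and 1113 in PRMT1_KO (2.81 ± 0.19, adjusted p = 2.95e-06), Ctsg, cathepsin G, at 80.2 and 76.9 CPM in WT_PRMT1 against 677 and 667 in PRMT1_KO (3.10 ± 0.41, adjusted p = 1.94e-04), Mpo, myeloperoxidase, at 519.6 and 558 CPM in WT_PRMT1 against 2039 and 2198 in PRMT1_KO (1.98 ± 0.38, adjusted p = 0.00216) and Ms4a3 at 4.53 and 6.38 CPM in WT_PRMT1 against 95.9 and 101 in PRMT1_KO (4.17 ± 0.60, adjusted p = 3.31e-04). Elane, neutrophil elastase, did not pass the test (40.0 and 40.8 CPM in WT_PRMT1 against 97 and 79.4 in PRMT1_KO, adjusted p = 0.238), nor did the late genes Ngp (195 and 236 CPM in WT_PRMT1 against 671 and 573 in PRMT1_KO, 0.262) and S100a8 (117 and 117 CPM in WT_PRMT1 against 499 and 394 in PRMT1_KO, 0.138), although both knockout libraries lay above both controls. The higher count was 7 without PRMT1_KO S8, 6 without either WT_PRMT1 library and 26 in a fit of the 4 libraries alone. Of 29 monocyte and macrophage genes 7 were higher and 0 lower (median 0.61), with 4 higher without WT_PRMT1 S11, 11 to 13 without the filter, with limma-voom or in the 4 libraries alone, and 2 to 4 lower in those fits, with library totals or at a mean of at least 5 CPM. They included the chemokine receptor Ccr2 (54.2 and 51.8 CPM in WT_PRMT1 against 289 and 251 in PRMT1_KO, 2.35 ± 0.31, adjusted p = 1.90e-04), Fcgr3 (5.43 and 4.94 CPM in WT_PRMT1 against 42.8 and 46.3 in PRMT1_KO, 3.10 ± 0.51, adjusted p = 8.44e-04), Cd14 (1.82 ± 0.35) and Cd63 (1.14 ± 0.13). The summed level of that list did not rise, at 2982 and 2997 CPM in WT_PRMT1 against 2825 and 2782 in PRMT1_KO.

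B cell genes had the lowest median of the 46 lists. Of 26 tested, 18 were lower and 0 higher (median -2.24). Pax5, which commits cells to the B lineage, was at 96.2 and 80.7 CPM in WT_PRMT1 against 2.76 and 2.32 in PRMT1_KO (-5.13 ± 0.50, adjusted p = 2.43e-05), Ebf1 at 91.8 and 84 CPM in WT_PRMT1 against 1.47 and 2.05 in PRMT1_KO (-5.62 ± 0.78, adjusted p = 2.73e-04) and Vpreb3, of the pre-B cell receptor, at 92.2 and 101 CPM in WT_PRMT1 against 2.57 and 2.05 in PRMT1_KO (-5.40 ± 0.56, adjusted p = 4.03e-05). Spib, a factor of B and plasmacytoid dendritic cells, was at 79.6 and 75.7 CPM in WT_PRMT1 against 10.6 and 8.03 in PRMT1_KO (-3.06 ± 0.32, adjusted p = 4.16e-05). Controls were above knockouts for all 4. The immunoglobulin genes Ighm (3335 and 3356 CPM in WT_PRMT1 against 4319 and 6518 in PRMT1_KO, adjusted p = 0.212), Igkc (1847 and 1929.7 CPM in WT_PRMT1 against 2851 and 3217 in PRMT1_KO, 0.201) and the joining chain gene Jchain (658 and 694 CPM in WT_PRMT1 against 542 and 598 in PRMT1_KO, 0.649) did not pass the test and made up most of the list's sum. That sum overlapped between the groups, at 9709 and 9671 CPM in WT_PRMT1 against 8471 and 11056 in PRMT1_KO. Lymphoid-primed progenitor genes were lower in 11 of 29 cases and higher in 4 (median -0.44), with 7 lower without PRMT1_KO S9 and a median of -0.29 without WT_PRMT1 S10. Rag1, the recombinase, was at 30.8 and 34.3 CPM in WT_PRMT1 against 0.490 and 1.25 in PRMT1_KO (-5.17 ± 0.57, adjusted p = 5.61e-05), the kinase Lck at 62.5 and 68.6 CPM in WT_PRMT1 against 26.3 and 23.4 in PRMT1_KO (-1.40 ± 0.15, adjusted p = 4.03e-05) and the E protein Tcf3 at 300.2 and 310.3 CPM in WT_PRMT1 against 172 and 173 in PRMT1_KO (-0.83 ± 0.09, adjusted p = 5.27e-05). Of 34 genes of T, NK and innate lymphoid cells 10 were lower and 5 higher (median -1.30). Lef1 was at 13 and 13.2 CPM in WT_PRMT1 against 0 and 0.446 in PRMT1_KO (-5.70 ± 0.91, adjusted p = 6.65e-04) and Il18r1 at 34.7 and 44.8 CPM in WT_PRMT1 against 9.74 and 9.10 in PRMT1_KO (-2.08 ± 0.20, adjusted p = 2.29e-05), while Rora was higher (1.62 ± 0.25, adjusted p = 5.59e-04). The lower count of that list was 5 without PRMT1_KO S8 or WT_PRMT1 S10 and 3 without PRMT1_KO S9 or WT_PRMT1 S11, and the higher count was 2 without WT_PRMT1 S10.

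Most dendritic cell genes were lower. Of 25 dendritic cell genes 16 were lower and 1, Id2 (0.62 ± 0.20), higher (median -2.18). The Id2 call was not kept with library totals or in any fit with 1 library left out. Their sum was 7134 and 6855 CPM in WT_PRMT1 against 2296 and 2158 in PRMT1_KO, and it was 2666 and 2562 in the separate WT group. H2-Aa, a class II chain, was at 796 and 731 CPM in WT_PRMT1 against 86.3 and 79.8 in PRMT1_KO (-3.20 ± 0.39, adjusted p = 1.11e-04), H2-Eb1 at 636 and 611 CPM in WT_PRMT1 against 61.9 and 49.2 in PRMT1_KO (-3.49 ± 0.44, adjusted p = 1.32e-04), and the class II transactivator Ciita, named after its values were seen, at 35.8 and 26 CPM in WT_PRMT1 against 5.51 and 4.19 in PRMT1_KO (-2.67 ± 0.46, adjusted p = 0.00104). The shared factor Irf8 did not pass the test (993 and 1062 CPM in WT_PRMT1 against 486 and 419.9 in PRMT1_KO, adjusted p = 0.0739), nor did Tcf4 (0.940). Other members of the MHC list were higher. H2-Q4, of class I, was at 136 and 146 CPM in WT_PRMT1 against 324 and 340.5 in PRMT1_KO (1.24 ± 0.074, adjusted p = 1.43e-06), H2-Q6 at 0.95 ± 0.066, the class I gene H2-D1 at 1694 and 1736 CPM in WT_PRMT1 against 2815 and 2680.4 in PRMT1_KO (0.68 ± 0.079, adjusted p = 7.95e-05) and the peptide transporter Tap2 at 0.77 ± 0.091. The H2-Q genes are near copies and can share reads. The interferon gamma and MHC list thus held 11 higher and 10 lower of 34, and its median of 0.12 became -0.021 with library totals.

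**Figure D4:**
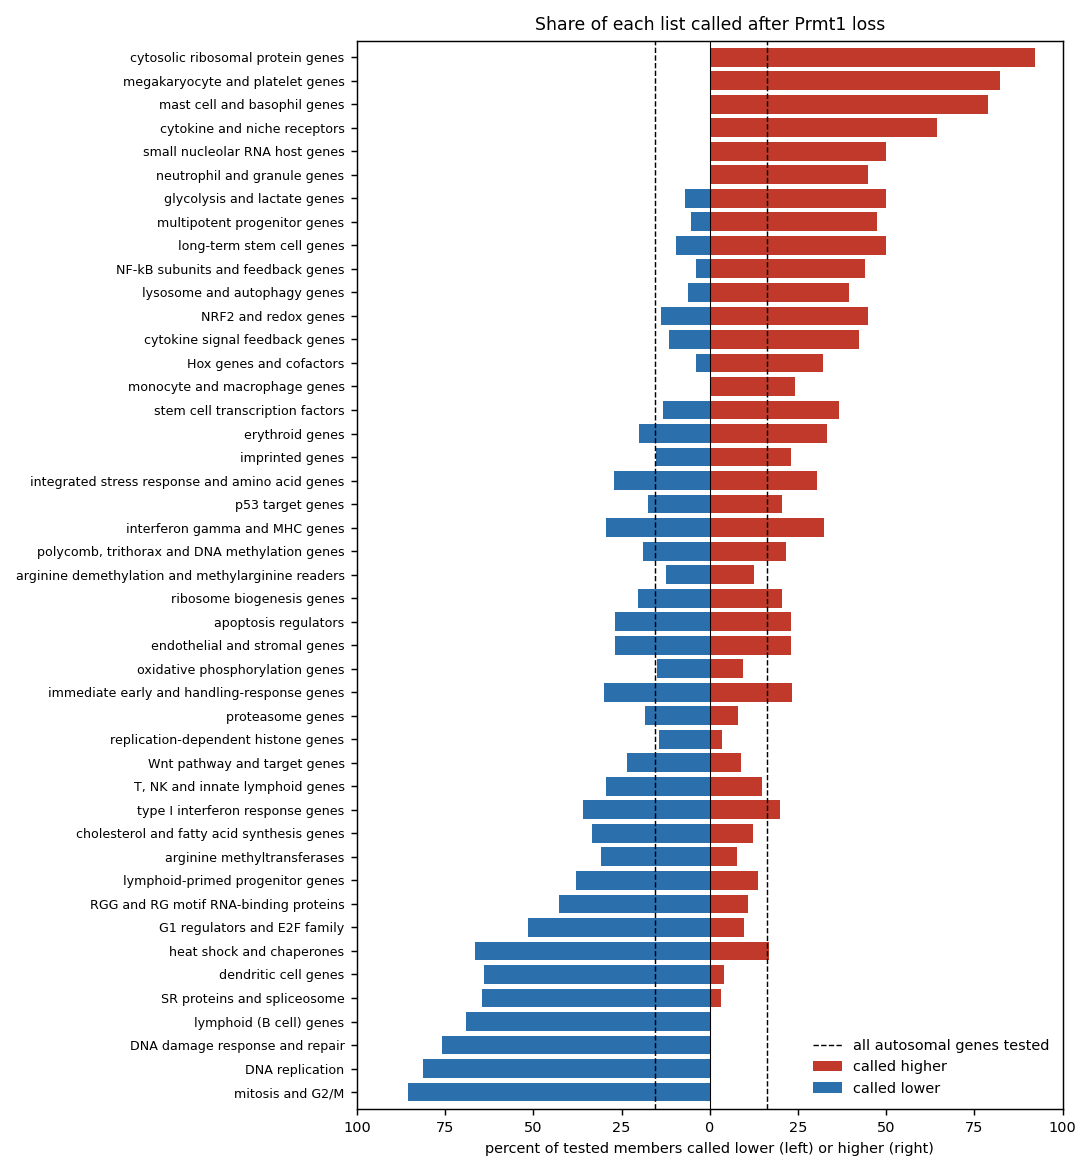
Share of the tested members of 45 gene lists called lower (blue, left) or higher (red, right) in PRMT1_KO, in percent, ordered by the difference of the shares, with dashed lines at the shares of all autosomal genes tested (15.5% lower, 16.2% higher). Mitosis, replication and repair genes lie at the lower end, and ribosomal protein, platelet and mast cell genes at the upper end.

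Receptors for cytokines and niche signals were higher in 27 of 42 cases and lower in 0 (median 0.63), with 17 higher without WT_PRMT1 S11. Ifngr1, of the interferon gamma receptor, was at 69 and 79.8 CPM in WT_PRMT1 against 248 and 256 in PRMT1_KO (1.76 ± 0.11, adjusted p = 1.95e-06), the interleukin 1 receptor Il1r1 at 29 and 30.2 CPM in WT_PRMT1 against 91.7 and 96.1 in PRMT1_KO (1.67 ± 0.12, adjusted p = 3.94e-06) and the integrin Itga6 at 35 and 47.6 CPM in WT_PRMT1 against 129 and 132 in PRMT1_KO (1.66 ± 0.14, adjusted p = 8.87e-06). Kit, the stem cell factor receptor by which these cells were sorted, rose 2.25-fold. Feedback genes of cytokine signalling were higher in 11 of 26 cases and lower in 3 (median 0.33). Socs2, an inhibitor induced by STAT5, was among the clearest losses of all, at 244 and 262 CPM in WT_PRMT1 against 12.3 and 10.5 in PRMT1_KO (-4.48 ± 0.19, adjusted p = 1.30e-07). The other STAT5-responsive inhibitor in the list, Cish, gave 0.16 ± 0.15 and did not pass the test, and Socs3 was higher (0.74 ± 0.16, both named after their values were seen). The phosphatase Dusp4 (1.63 ± 0.17, adjusted p = 3.39e-05) and Spry1 (0.95 ± 0.14, adjusted p = 3.16e-04), which restrain ERK signalling, were higher and Dusp5 lower (-0.90 ± 0.12, adjusted p = 2.36e-04). The higher count was 7 without PRMT1_KO S9, without WT_PRMT1 S11 or with library totals, the lower count 5 with library totals, DESeq2 or the 4 libraries alone, and the median 0.51 without WT_PRMT1 S10.

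Genes for NF-kB subunits and feedback were higher in 11 of 25 cases and lower in 1 (median 0.30). The lower one was Cd83 (-1.37 ± 0.44, named after its value was seen). The Cd83 call was not kept in any fit with 1 library left out. Ccl4, a chemokine, was at 103 and 96.1 CPM in WT_PRMT1 against 407 and 400.3 in PRMT1_KO (2.02 ± 0.20, adjusted p = 2.70e-05), the atypical inhibitors Nfkbiz at 314 and 271 CPM in WT_PRMT1 against 742 and 920.1 in PRMT1_KO (1.51 ± 0.15, adjusted p = 2.33e-05) and Bcl3 at 9.79 and 5.84 CPM in WT_PRMT1 against 42.5 and 48.3 in PRMT1_KO (2.54 ± 0.28, adjusted p = 6.26e-05), and Tnf at 71.9 and 67.9 CPM in WT_PRMT1 against 157 and 186 in PRMT1_KO (1.30 ± 0.17, adjusted p = 1.99e-04). Type I interferon response genes were divided. Of 50 tested, 18 were lower and 10 higher (median -0.27), with 6 higher under library totals. Ifi27 was at 93.9 and 96.6 CPM in WT_PRMT1 against 40.9 and 38 in PRMT1_KO (-1.27 ± 0.095, adjusted p = 4.53e-06), Oas1a at 47 and 45.6 CPM in WT_PRMT1 against 23.6 and 20.6 in PRMT1_KO (-1.07 ± 0.12, adjusted p = 7.63e-05) and Dhx58 at -1.04 ± 0.13, while Gbp2 was at 35.8 and 39.2 CPM in WT_PRMT1 against 74.8 and 74.8 in PRMT1_KO (1.0 ± 0.12, adjusted p = 1.25e-04). Cxcl10, a chemokine named after its values were seen, rose (13.6 and 12.7 CPM in WT_PRMT1 against 85 and 106 in PRMT1_KO, 2.86 ± 0.44, adjusted p = 5.33e-04).

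Glycolysis genes were higher in 14 of 28 cases and lower in 2 (median 0.40), with 9 higher under library totals. The glucose transporter Slc2a3 was at 60.2 and 70.1 CPM in WT_PRMT1 against 206 and 242 in PRMT1_KO (1.78 ± 0.15, adjusted p = 1.03e-05), Pfkfb3, which activates phosphofructokinase, at 47.7 and 50.8 CPM in WT_PRMT1 against 129 and 131 in PRMT1_KO (1.40 ± 0.13, adjusted p = 1.43e-05) and hexokinase Hk1 at 176 and 188 CPM in WT_PRMT1 against 394 and 409.9 in PRMT1_KO (1.14 ± 0.072, adjusted p = 1.77e-06). Gpi1, the isomerase that follows, rose by 0.67 ± 0.068. Targets of Nrf2 and redox enzymes were higher in 13 of 29 cases and lower in 4 (median 0.29). Glutathione reductase Gsr was at 56.3 and 55.6 CPM in WT_PRMT1 against 219 and 231 in PRMT1_KO (2.01 ± 0.11, adjusted p = 7.52e-07), and Gstm1 and Gclm, of glutathione transfer and synthesis, at 1.26 ± 0.085 and 1.20 ± 0.083. Prdx1 was lower (-0.70 ± 0.068, adjusted p = 2.43e-05), and the classic Nrf2 targets Hmox1 and Nqo1 did not pass the test (0.084 ± 0.24 and 0.29 ± 0.28). Oxidative phosphorylation genes had 7 higher and 11 lower of 74 (median -0.065). That share was smaller than the 31.8% of all genes and the 54.8% of the top group by mean CPM. Cox7a2l (0.93 ± 0.08, adjusted p = 1.21e-05) and Uqcrfs1 (0.53 ± 0.092) were higher, and Ndufa3 (-0.61 ± 0.11) and Atp5k (-0.51 ± 0.093) lower. The lower count was 24 with library totals, 5 without PRMT1_KO S9 and 6 without either WT_PRMT1 library, and the higher count was 4 without PRMT1_KO S8 or with library totals. The median was 0.0037 without PRMT1_KO S9, -0.012 without WT_PRMT1 S10 and -0.10 without PRMT1_KO S8. Cholesterol and fatty acid synthesis genes had 4 higher and 11 lower of 33 (median -0.21). Fdft1 (-1.03 ± 0.16, adjusted p = 4.52e-04) and Cyp51 (-0.97 ± 0.14, adjusted p = 3.88e-04), of sterol synthesis, were lower and the exporter Abca1 (1.72 ± 0.22, adjusted p = 1.48e-04) and desaturase Fads1 (0.69 ± 0.11) higher. The lower count was 5 without PRMT1_KO S8 or WT_PRMT1 S11 and 6 and 7 without S9 and S10, and the median was -0.11 without WT_PRMT1 S11.

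Protein turnover, stress and survival genes were also measured. Lysosome and autophagy genes were higher in 13 of 33 cases and lower in 2 (median 0.29). The proteases Ctsa (152 and 154 CPM in WT_PRMT1 against 361 and 357 in PRMT1_KO, 1.23 ± 0.10, adjusted p = 8.87e-06) and Ctsd (0.99 ± 0.091) and the autophagy protein Map1lc3b (0.84 ± 0.083) were higher and the galactosidase Glb1 (-1.28 ± 0.09, adjusted p = 3.18e-06) lower. Proteasome genes had 3 higher and 7 lower of 38 (median -0.049), among them Psmg2 (-0.86 ± 0.16), Psmc4 (-0.57 ± 0.10), Psme3 (-0.43 ± 0.079) and Psmb6 (-0.39 ± 0.073), all lower. The lower count was 4 without PRMT1_KO S9 and 11 with library totals. The higher count was 1 without PRMT1_KO S8 or either WT_PRMT1 library or with library totals and 5 under 4 other settings, and the median was 0.023 without WT_PRMT1 S11. Genes of the integrated stress response had 10 higher and 9 lower of 33, and their median of 0.083 was -0.057 with library totals. Ddit4, an inhibitor of mTOR, was at 83 and 74.2 CPM in WT_PRMT1 against 208 and 218 in PRMT1_KO (1.44 ± 0.11, adjusted p = 4.20e-06), Nupr1 at 1.87 and 0.899 CPM in WT_PRMT1 against 16.4 and 16.4 in PRMT1_KO (3.59 ± 0.36, adjusted p = 2.91e-05) and the amino acid transporter Slc7a5 at 0.69 ± 0.083, whereas Phgdh, of serine synthesis, was lower (-0.56 ± 0.062, adjusted p = 6.11e-05). The lower count was 4 or 5 without PRMT1_KO S8, PRMT1_KO S9 or WT_PRMT1 S11, and the median 0.033 without the last. Apoptosis regulators had 6 higher and 7 lower of 26 (median -0.22), with 11 lower in the 4 libraries alone. The median was -0.036 at a mean of at least 5 CPM and -0.11 without PRMT1_KO S8. Bcl2l11, which encodes the death-promoting Bim, was at 18 and 19.6 CPM in WT_PRMT1 against 88.8 and 95 in PRMT1_KO (2.29 ± 0.19, adjusted p = 9.18e-06) and the inhibitor Birc3 at 23.5 and 21.8 CPM in WT_PRMT1 against 44.6 and 51.2 in PRMT1_KO (1.08 ± 0.19, adjusted p = 0.00130), while Bok (15.1 and 12.5 CPM in WT_PRMT1 against 1.72 and 1.87 in PRMT1_KO, -2.94 ± 0.23, adjusted p = 7.37e-06) and Casp8 (-0.65 ± 0.12, adjusted p = 0.00132) were lower.

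Wnt pathway genes had 8 lower and 3 higher of 34 (median -0.26), with 5 lower without WT_PRMT1 S10 and 5 higher with DESeq2, limma-voom or the 4 libraries alone. The median ran from -0.41 without PRMT1_KO S9 to -0.067 without S8 and -0.10 without WT_PRMT1 S10, and was -0.063 at a mean of at least 5 CPM and -0.16 in the 4 libraries alone. The co-receptor Lrp5 was at 116 and 116 CPM in WT_PRMT1 against 317 and 341 in PRMT1_KO (1.51 ± 0.12, adjusted p = 6.14e-06) and Myc at 168 and 144 CPM in WT_PRMT1 against 246 and 279.8 in PRMT1_KO (0.75 ± 0.12, adjusted p = 4.96e-04), both higher, and Lef1 and Tnfrsf19 were lower, as given above. Among 37 polycomb, trithorax and DNA methylation genes 8 were higher and 7 lower. The median of 0.16 was -0.016 without PRMT1_KO S9, 0.30 without S8 and 0.094 without WT_PRMT1 S11. Ezh2, the methyltransferase of polycomb, was at 292 and 294 CPM in WT_PRMT1 against 139 and 131 in PRMT1_KO (-1.12 ± 0.13, adjusted p = 9.92e-05) and Uhrf1, which guides DNA methylation at forks, at 227 and 229.7 CPM in WT_PRMT1 against 84.2 and 109 in PRMT1_KO (-1.24 ± 0.12, adjusted p = 3.04e-05), whereas Cbx7 rose (10.4 and 9.08 CPM in WT_PRMT1 against 27.7 and 26.1 in PRMT1_KO, 1.46 ± 0.17, adjusted p = 7.81e-05) and Idh2 fell (-0.74 ± 0.075). Imprinted genes had 6 higher and 4 lower of 26, with 3 higher without PRMT1_KO S9 or WT_PRMT1 S11 and 1 lower without PRMT1_KO S8, PRMT1_KO S9 or WT_PRMT1 S10. Dlk1 was at 4.53 and 5.84 CPM in WT_PRMT1 against 54.9 and 54.5 in PRMT1_KO (3.39 ± 0.60, adjusted p = 0.00122), Grb10 at 1.58 ± 0.21 and Impact at 1.04 ± 0.19, and Igf2r (-0.99 ± 0.22) lost its call without PRMT1_KO S8 (0.0503).

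Markers of cells that the sort should leave out differed between the groups. Endothelial and stromal genes had 6 higher and 7 lower of 26 (median -0.85, sum 795 and 1050.3 CPM in WT_PRMT1 against 773 and 793 in PRMT1_KO), with 4 lower without PRMT1_KO S9 or WT_PRMT1 S10. The median was 0.016 among those with a mean of at least 5 CPM. Of its members 2 were at 0 in both PRMT1_KO libraries and none in both controls. Col1a2 was at 111 and 216 CPM in WT_PRMT1 against 23.4 and 19.3 in PRMT1_KO (-2.94 ± 0.35, adjusted p = 8.79e-05) and Pdgfrb at 27.9 and 26.1 CPM in WT_PRMT1 against 69.1 and 81 in PRMT1_KO (1.48 ± 0.17, adjusted p = 8.47e-05). Receptor genes of the olfactory and vomeronasal organs, not known to be active in blood cells, summed to 143 and 146 CPM in the controls and 86.6 and 79.9 in PRMT1_KO. Of 56 tested, Olfr56 was higher (0.453 and 1.35 CPM in WT_PRMT1 against 7.17 and 6.60 in PRMT1_KO, 2.90 ± 0.48, adjusted p = 8.56e-04) and Olfr727 (0.113 and 3.60 CPM in WT_PRMT1 against 0 and 0.0446 in PRMT1_KO) was called lower, a call lost without either PRMT1_KO library or WT_PRMT1 S11 (adjusted p up to 0.547). Lineage genes such as Pax5 and H2-Aa were far above 0 in the control libraries although the fraction is defined as lineage-negative. No tested member of the B cell, T and NK cell or dendritic cell lists was at 0 in both libraries of a group. The part of any such cells or signal in the changes above was not tested.

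The other knockouts of the series were each set against WT, sharing those controls among themselves and no library with the Prmt1 comparison, and the difference between the changes was tested in the same fit. The Prmt1 change differed from the HOXA9_KO change for 2806 autosomal genes (17%), from the Bcat_KO change for 4019 (24.4%) and from the dKO change for 2383 (14.4%). Without 1 library these counts were as low as 1764 (WT_PRMT1 S11 left out), 2691 (PRMT1_KO S8) and 1440 (PRMT1_KO S8), and the first was 1833 without PRMT1_KO S8. The dKO count was 1453 without WT_PRMT1 S11, 1505 without PRMT1_KO S9 and 1579 without WT_PRMT1 S10. The Prmt1 change was the higher one in 46.4% of the first set, 55.4% of the second and 49.0% of the third, and in 30.8%, 37.7% and 35.7% with library totals. A difference can lie in the control groups too. Kit was at 271 and 269 CPM in WT against 144 and 139 in WT_PRMT1, and the mast cell list summed to 1696 and 1583 against 951 and 946.

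Ribosomal protein genes differed from each of the other knockouts. In HOXA9_KO 1 of 77 were higher and 2 lower, in Bcat_KO 1 and 25, and in dKO 1 and 2. The Prmt1 change was called above the HOXA9_KO change for 70 of them, above the Bcat_KO change for 67 and above the dKO change for 65, and below it for none. Few genes of any kind were called after Hoxa9 loss, 594 higher and 280 lower of the 16503 autosomal genes. The low ribosomal counts of that knockout therefore do not by themselves set this list apart from other genes. Totals over all genes for the other knockouts are given below with the lineage lists. Zfas1 gave -0.20 ± 0.10 in dKO (adjusted p of the difference = 3.12e-06), and Socs2 gave -0.029 ± 0.17 (3.12e-06). For Socs2, the HOXA9_KO and Bcat_KO changes were -0.90 ± 0.17 and 0.41 ± 0.16 (difference 1.51e-05 and 1.82e-06).

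Cell cycle genes fell in dKO as well. Mitosis genes were lower in 45 of 49 there (median -1.25) and differed from the Prmt1 change in 2, both lower after Prmt1 loss. Kif11 gave -1.43 ± 0.14 in dKO, and the difference from its change after Prmt1 loss did not pass the test (adjusted p = 0.750). Replication genes were lower in 43 of 59 in dKO (median -0.55). The Prmt1 change was below the dKO change for 11 of them, Tyms included (-0.79 ± 0.12 in dKO, 2.24e-04), and above it for 1. Among 62 repair genes the Prmt1 change was below the dKO change for 14 and above it for 1. Brca2 was among the 14, and its change in dKO was -0.058 ± 0.11 (5.14e-05). Over all 16503 autosomal genes the Prmt1 change was below the dKO change for 1216 and above it for 1167. Hspa1b was lower in all 4 knockouts, at -2.31 ± 0.19 in HOXA9_KO, -3.32 ± 0.20 in Bcat_KO and -5.47 ± 0.22 in dKO, and the Prmt1 change exceeded each (adjusted p of the differences = 5.44e-06, 1.08e-05 and 0.00152). Its near-identical copy Hspa1a gave -2.32 ± 0.19, -3.65 ± 0.20 and -5.09 ± 0.22, and its change after Prmt1 loss did not differ from that in dKO past the test (adjusted p of the 3 differences = 3.59e-05, 3.61e-04 and 0.105).

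Lineage lists were compared in the same way. Multipotent progenitor genes were higher in 1 and lower in 10 of 19 in dKO (median -0.67), and the Prmt1 change was the higher one for 13. Mpo gave -0.13 ± 0.37 in dKO (difference 0.0208) and Prtn3 0.39 ± 0.18 (2.32e-04). Long-term stem cell genes were higher in 30 of 42 in dKO (median 1.09). Over the 42 tested, the Prmt1 change was below the dKO change for 15 and above it for 3. Platelet genes were higher in both, in 18 of 28 in dKO (median 1.65). Vwf gave 3.66 ± 0.30 there (difference 0.746), whereas Selp gave 2.33 ± 0.15 (1.28e-04). For dendritic cell genes the Prmt1 change was lower than the dKO change in 10 of 25, H2-Aa among them (0.43 ± 0.36 in dKO, 0.00131), and higher in 2. In Bcat_KO 14 of these 25 genes were lower and 2 higher (median -1.31). B cell genes were lower in 18 of 26 and higher in 0 in Bcat_KO (median -1.91). In dKO 13 B cell genes were lower and 4 higher (median -1.03). Over all 16503 autosomal genes, 1115 were higher and 1473 lower in Bcat_KO, and 1425 were higher and 1297 lower in dKO. NF-kB genes moved in opposite directions in some cases: Ccl4 gave -3.61 ± 0.22 and Tnf -2.01 ± 0.18 in dKO (2.74e-06 and 3.14e-05).

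**Figure D5:**
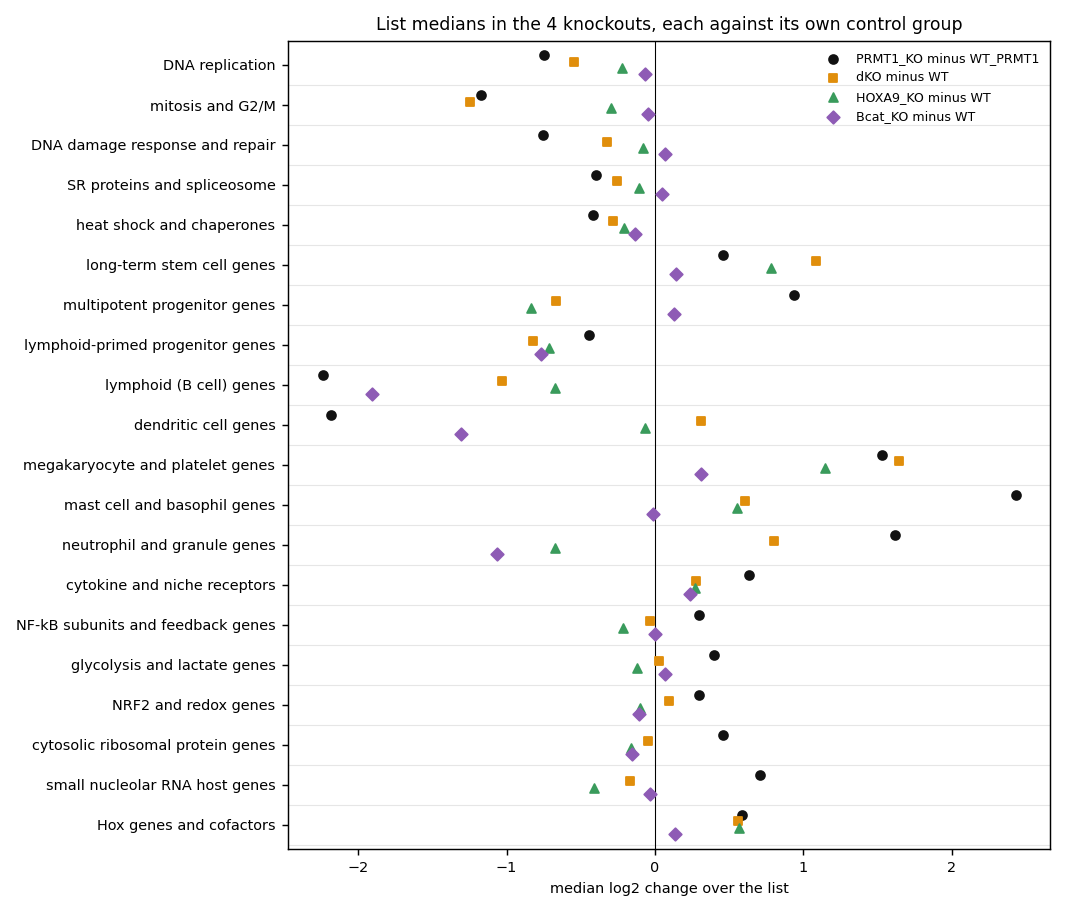
Median log2 change of 20 gene lists in each knockout against its own control group (circles PRMT1_KO, squares dKO, triangles HOXA9_KO, diamonds Bcat_KO). Mitosis medians are near -1.17 and -1.25 in PRMT1_KO and dKO, whereas the ribosomal protein median is above 0 for PRMT1_KO and not for the others.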

How the data were processed

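RNA was sequenced from sorted LSK cells in 12 libraries, 2 for each of 6 groups. The authors deposited a table of raw counts per gene, made with STAR 2.7.6a, Trim Galore 0.6.6 and featureCounts per the submitters' processing notes. Of its 55471 gene rows, 55230 match GENCODE M21 (GRCm38). How strand was treated in counting is not given in the sources. Between 68.6% and 71.5% of counts in the 4 libraries are even numbers, as when both mates of a pair are counted, so counts exceed the number of fragments.

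The counts were tested with edgeR 4.0.16 (quasi-likelihood, TMM scaling, filterByExpr at a minimum count of 10, 1 mean per group over all 12 libraries, 6 residual degrees of freedom). Benjamini-Hochberg adjustment ran over all 17063 genes tested, and a gene was called at an adjusted p under 0.05. The test was tried on simulated counts. Levels are CPM on TMM-scaled library sizes, and changes are log2 (PRMT1_KO minus WT_PRMT1) with the SE of the 12-library fit. Alternatives were other scalings and filters, the 4 libraries alone, each library left out, DESeq2 1.42.0 and limma-voom 3.58.1.

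The members and the 46 gene lists were chosen with earlier results of these data known. Lists are described by counts and medians, with no test. The text names the 15 largest called changes in each direction (protein-coding, mean of at least 2 CPM, no overlap), up to 4 called members with the smallest p of each list, all arginine methyltransferases, and Prmt1, Hoxa9 and Ctnnb1. Other genes, the neighbours of Prmt1 and list members outside this rule included, were chosen after their values were seen. Some genes that the rule names are not reported here. Promoters are RefSeq's (GRCm38.p6), matched by symbol for 11346 of 16486 symbols tested.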

Additional observations from a re-analysis of the deposited data

How the results depend on the processing

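Across 12 alternatives, the count of autosomal genes called ran from 3607 to 3734 with 1 library left out, and was 5020 at a mean of at least 5 CPM, 5094 with no filter, 5745 with DESeq2, 6400 with limma-voom and 6465 with the 4 libraries alone. Those fits with 1 library left out hold fewer samples, and the lone library of a group is taken to vary like the other groups. Counts of genes whose change differed from that of another knockout moved in the same way. They were 1764 to 1928 for HOXA9_KO with 1 library left out, 2691 to 2954 for Bcat_KO and 1440 to 1579 for dKO. DESeq2 gave 3544, 4661 and 3132. Of 196 genes named by rule and called, 187 were called under every alternative that gave a p, and 0 changed sign. The other 9 were Padi4, Cxcl9, Prmt2, Olfr727, Hmgcll1, Bcl2a1d, Hist1h1d, Hist1h2ac and Igf2r. Most of the 196 were picked from the main fit for a large change or a small p, which favours keeping a call. They do not stand for all 5244 autosomal calls, of which 4487 were called in the same direction with library totals and 5169 with DESeq2. No paired analysis was possible because the column names of the count table carry sequencing tags and no replicate numbers. With 2 libraries a group, low-count genes give wide errors, as with Cma1 and Fcer1a, and their calls are fewer.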
